A study of Mus musculus with 14 samples.

Results

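Expression of 7 mouse genes of cholesterol synthesis and its control, Srebf2, Insig1, Hmgcs1, Idi1, Fdps, Fdft1 and Sqle, was examined in regulatory T cells (Tregs) of the intestine. The genes were chosen by name, and each had 1 row in both deposited count tables, that is 7 of 53801 genes in the table of Foxp3-YFP-cre mice and 7 of 55487 in the table of the inducible line. RNA-seq was performed on 14 libraries of Tregs in 6 groups of 2 or 3 mice, which were compared to learn which transcripts depend on the AP-1 transcription factor JunB in Tregs.

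PP Tregs were sorted from Peyer's patches (PP, the lymphoid follicles of the small intestine) as CD4+ Foxp3(YFP)+ CD62L- cells of 2 JunB F/+ Foxp3YFPcre (HET) and 2 JunB F/F Foxp3YFPcre (KO) male mice, in which Cre is made wherever Foxp3 is expressed and no treatment was given. The study notes that Junb could be deleted in the germ line of such animals, and chose its crosses accordingly. All 10 other libraries came from mice with Foxp3ERT2cre and Rosa26-tdTomato, in which tamoxifen activates Cre in Foxp3+ cells and labels them. Tamoxifen was gavaged 3 times at 8 mg, first on day 0 and then on days 1 and 3, and Tregs were taken on day 7. Colonic Tregs were sorted from the lamina propria as TCRb+ CD4+ Foxp3(EGFP)+ tdTomato+ cells of 3 JunB F/+ (iHET) and 3 JunB F/F (iKO) mice. CD25- PP Tregs carried the same markers but lacked CD25, and came from 2 iHET and 2 iKO mice. In both populations of the inducible line the mice numbered 1 were males with the label Foxp3ERT2cre+, and those numbered 2 and 3 were females with the label Foxp3ERT2cre+/+, so the sex and the number of copies of Cre cannot be told apart. All groups, controls included, thus carried a Cre at Foxp3 and at least 1 floxed Junb allele, and the labels give no age.

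Cells make cholesterol from acetyl-CoA through mevalonate and a chain of isoprenoids. When sterols in the endoplasmic reticulum are low, the transcription factor SREBP-2, the product of Srebf2, is escorted to the Golgi, cut and released to the nucleus, where it turns on the enzymes of the chain through sterol regulatory elements. When sterols are plentiful, INSIG-1 holds the SREBP complex in the endoplasmic reticulum, and Insig1 is itself a target of SREBPs. Of the enzymes, HMG-CoA synthase (Hmgcs1) acts before mevalonate, isopentenyl diphosphate isomerase (Idi1) and farnesyl diphosphate synthase (Fdps) build the isoprenoid that also serves protein prenylation, and squalene synthase (Fdft1) and squalene epoxidase (Sqle) commit it to sterols. In Tregs, lipid and mevalonate metabolism is known to support proliferation and suppressive function.

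Each library held between 26274861 and 35508709 counts, so that 3 counts corresponded to between 0.0845 and 0.114 CPM (counts scaled to a library of 1000000). All CPM used edgeR's TMM factors, which remove differences in composition, set separately for the Foxp3-YFP-cre table and the inducible table. Junb, the targeted gene, was at 4182 to 8471 CPM in the HET and iHET and at 560.9 to 1029 CPM in the KO and iKO libraries, and thus matched the labelled genotype in all 14. Foxp3 and the other 5 Treg markers looked for were present in every library. Il2ra, which encodes CD25, was at 184.6 to 239.3 CPM in CD25- PP Tregs and at 560.7 to 751.8 CPM in colonic Tregs. In PP Tregs it was at 462.6 and 478 CPM in HET and at 683.1 and 881.6 CPM in KO mice. Markers of intestinal epithelium summed to 157.6 and 206.7 CPM in PP Tregs of HET and to 65.28 and 73.24 CPM in those of KO mice. Of the 11 tested, 9 were called lower in KO mice, where 288 of all 12224 genes tested were. B cell markers summed to 136.5 and 162.7 CPM in HET and to 80.78 and 122 CPM in KO mice, 0 of 6 called. Cytotoxic lymphocyte markers summed to 54.46 and 54.96 CPM in HET and to 34.56 and 37.87 CPM in KO mice. Of the 4 tested, 1 was called lower. Myeloid sums overlapped, at 106.4 and 190.9 CPM in HET and at 155.9 and 109.9 CPM in KO mice. In colonic Tregs the epithelial sum ran from 261.8 to 830 CPM in iHET and from 160.5 to 1458 CPM in iKO mice. In CD25- PP Tregs it was 419 and 190.1 CPM in iHET and 175.4 and 152.9 CPM in iKO mice. All 11 epithelial markers tested were lower in iKO mice in CD25- PP, and 10 of 12 were higher in colon, with 0 called in both. How much RNA of other cells contributed to any value was not tested.

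How much of the coding sequence of each gene could be counted differed widely. Reads that mapped to several places were discarded, and reads of 50 bases were assigned only where 1 gene was annotated. The coding sequence of each gene was cut into all windows of 50 bases, and each was looked for in the exons of every other gene of GENCODE M21 on GRCm38. For Srebf2 (chromosome 15, 82147181 to 82205379, plus strand) and Sqle (chromosome 15, 59315077 to 59331192, plus strand), 0 of 3341 and 0 of 1667 windows recurred. The share was 9.07% for Insig1 (chromosome 5, 28071363 to 28078662, plus strand), 29.8% for Hmgcs1 (chromosome 13, 119690379 to 119708260, plus strand) and 33% for Fdft1 (chromosome 14, 63145150 to 63179578, minus strand). It reached 79% for Idi1 (chromosome 13, 8885501 to 8892451, plus strand) and 93.9% for Fdps (chromosome 3, 89093588 to 89101959, minus strand). The windows of Idi1 recurred mainly in the processed pseudogene Gm13502, and those of Fdps in the processed pseudogenes Gm3571 and Gm5873 and in Gm43738, a gene model that runs through Fdps on the same strand. A window of each is printed in full to let the problem be seen, in lower case throughout since every base is shared. That of Idi1 spans bases 223 to 272 of its coding sequence (chr13:8886817-8886866, plus strand, GRCm38) and occurs in 3 other annotated genes, and that of Fdps spans bases 425 to 474 (chr3:89095366-89095415, minus strand) and occurs in 5.
Idi1: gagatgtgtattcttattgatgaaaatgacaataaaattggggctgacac
Fdps: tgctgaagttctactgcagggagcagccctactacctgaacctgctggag

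These 2 genes were also the lowest of the 7. Idi1 had 68 to 120 counts in the libraries of Foxp3-YFP-cre mice and 140 to 254 in those of the inducible line, and Fdps had 139 to 188 and 75 to 167. Their levels describe only the part of each transcript that could be counted, and are not comparable with those of the other genes. Over whole transcripts, 25.3% of the windows of Idi1 and 26.2% of those of Fdps recurred, near the 26.5% of Fdft1. How far lost reads lowered the levels of Idi1 and Fdps was not tested.

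**Figure D1:**
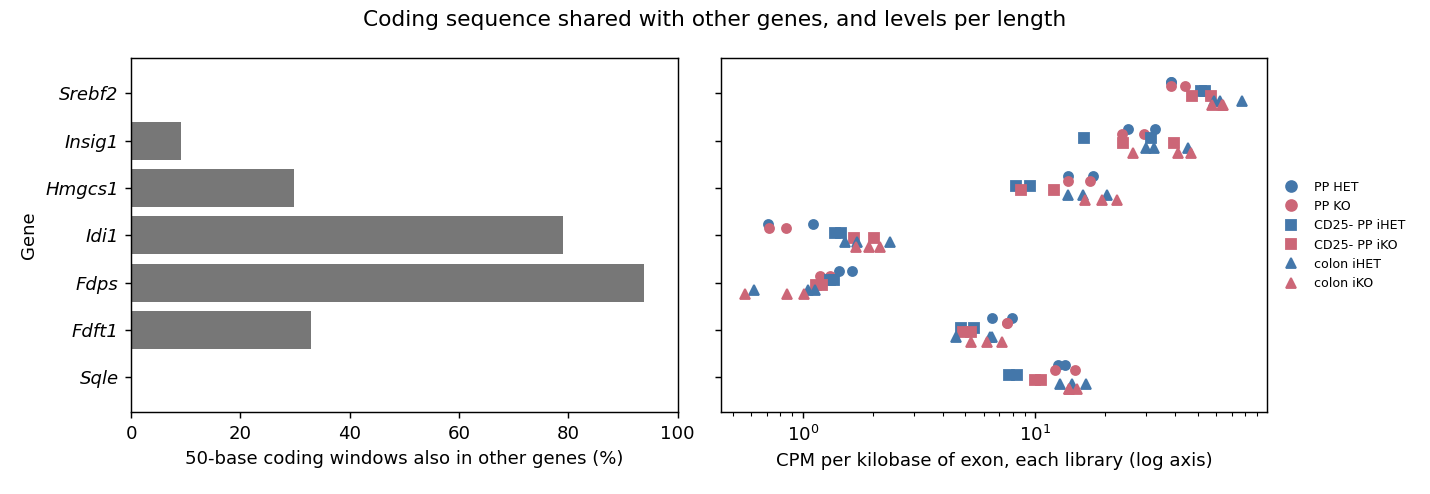
Left, the percentage of 50-base windows of the coding sequence of each gene that also occur in exons of other genes. Right, the level of each gene in each of the 14 libraries as CPM per kilobase of exon on a log axis, with circles for PP, squares for CD25- PP and triangles for colonic Tregs, blue for HET or iHET and red for KO or iKO. Fdps and Idi1 have both the largest shares of coding windows, 93.9% and 79%, and the lowest levels. Over whole transcripts their shares were 26.2% and 25.3%, against 26.5% for Fdft1.

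Per kilobase of exon, the transcription factor Srebf2 stood highest of the 7 in every group, with mean levels between 38.38 CPM per kilobase in PP Tregs of HET mice and 66.24 ± 10.1 (SD, n = 3) in colonic Tregs of iHET mice. Insig1 came next, with group means between 23.86 ± 10.9 and 38.13 ± 10.5 CPM per kilobase. Hmgcs1 and Sqle followed, with group means of 8.89 to 19.47 and of 7.999 to 14.54 CPM per kilobase, and their ranges overlapped within each of the 3 populations, so that no order could be set between them. Fdft1 lay below both, between 5.087 and 7.555 CPM per kilobase on average. Fdps and Idi1 are left out of this order for the shares of their coding sequence given above. Over the whole transcripts, not only the coding sequence, the shares of recurring windows were 25.3% for Idi1, 26.2% for Fdps and 26.5% for Fdft1. For Fdft1, 774 bases of its exons also lie in exons of the neighbouring gene Ctsb. The level of Fdft1 per kilobase may thus be understated too, and its place in the order is not firm. Among the 18626 genes tested in the inducible line, 98.2% had a lower mean CPM than Srebf2, without regard to length.

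**Figure D2:**
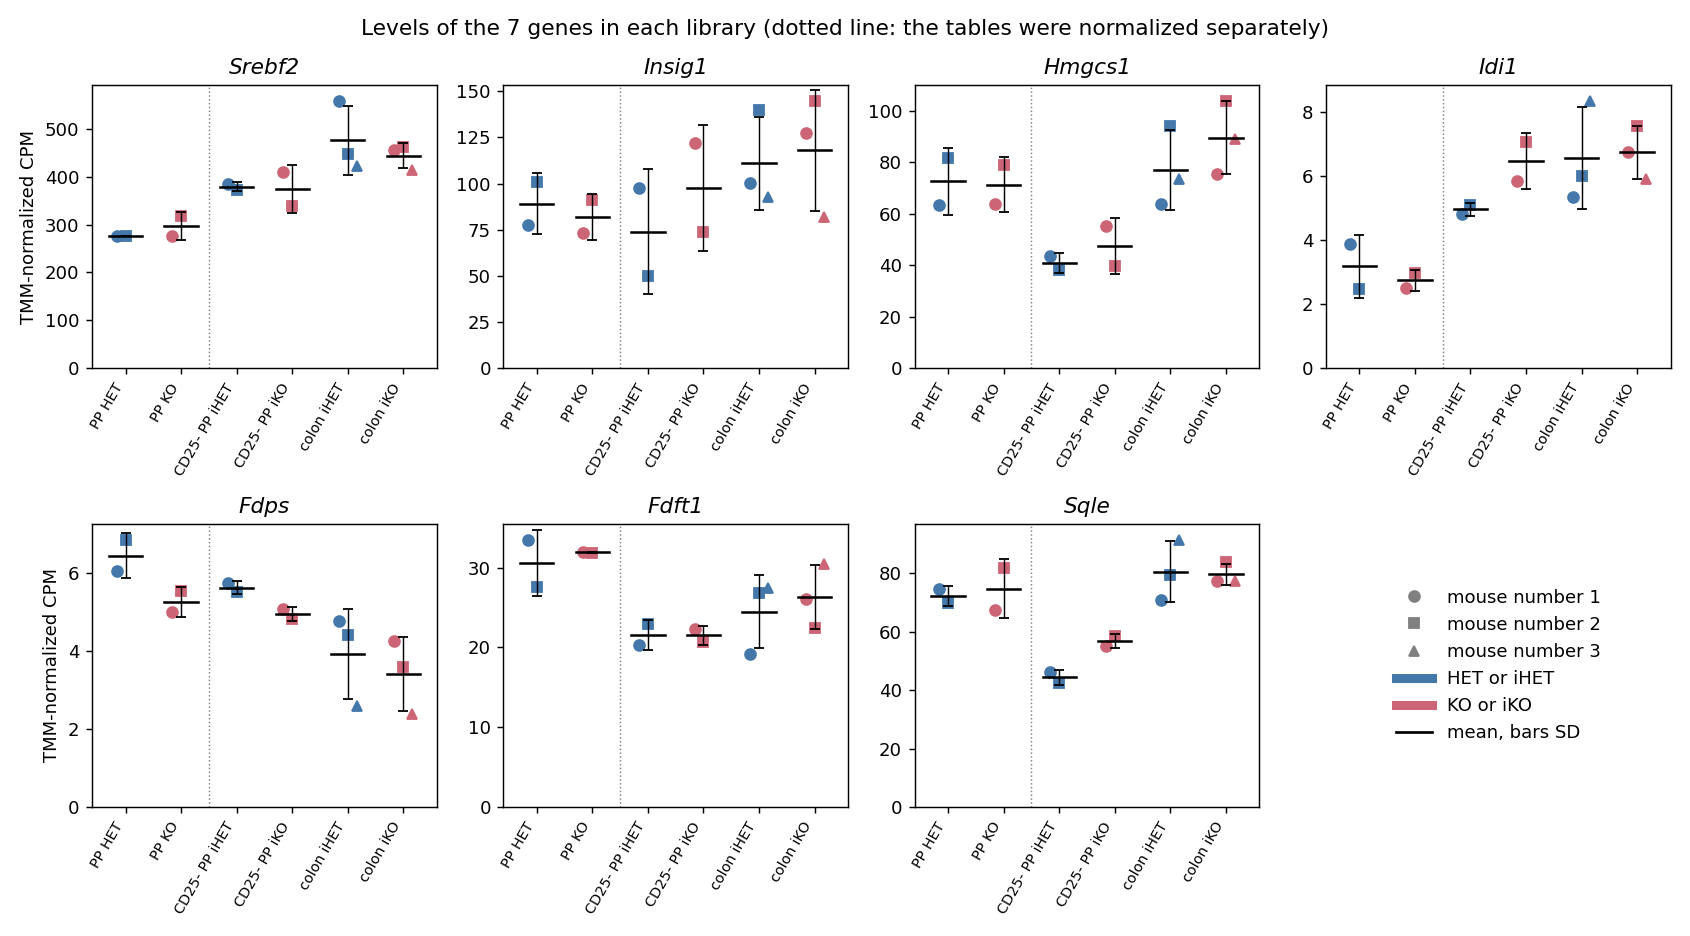
TMM-normalized CPM of each of the 7 genes in each library (points, with a symbol for each mouse number), with group means and SD (n = 2 in PP and CD25- PP groups, n = 3 in colonic groups). Blue points are HET or iHET and red points KO or iKO mice. Hmgcs1 and Sqle are the genes whose colonic libraries all sit well above the CD25- PP libraries. For these genes, iHET and iKO points overlap in colon, and those of Hmgcs1 also in CD25- PP. In CD25- PP, both iKO points of Sqle are above both iHET points.

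In PP Tregs of Foxp3-YFP-cre mice, none of the 7 genes differed detectably between KO and HET mice. Genes were called where edgeR's quasi-likelihood test gave a false discovery rate (FDR) below 0.05, as it did for 409 (3.35%) of 12224 genes here. Of the 7 genes, 0 were called and 0 had an unadjusted p below 0.05 (14% of all genes did), and both DESeq2's Wald test and edgeR's exact test called 0 as well. These are bulk samples, in which fewer cells of a type and less RNA per cell cannot be told apart. By flow cytometry, the study reports a marked loss of CD25- Tregs, follicular regulatory T cells among them, in KO mice. The make-up of the sorted cells may thus differ between HET and KO mice, and its part in these values was not tested.

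Srebf2 was at 275.7 CPM in both HET libraries, and the KO libraries held 276.9 and 317.3 CPM. The groups did not overlap, but the lower KO library was hardly above HET. Its log2 fold change of 0.11 (95% confidence interval -0.095 to 0.31) had an adjusted p of 0.702 in edgeR's quasi-likelihood test. Insig1, the sterol-sensing brake, was at 77.55 and 100.8 CPM in HET and at 73.03 and 90.83 CPM in KO Tregs. In both genotypes the library numbered 2 was the higher one, and the groups overlapped (log2 fold change -0.12, interval -0.46 to 0.22).

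Hmgcs1, the first of the enzymes, was at 63.44 and 81.72 CPM in HET and at 63.63 and 78.67 CPM in KO Tregs, which made its log2 fold change of -0.028 (interval -0.37 to 0.32) the smallest of the 7. Sqle was at 74.67 and 69.71 CPM in HET and at 67.65 and 81.93 CPM in KO Tregs, with HET inside the range of KO. Its log2 fold change was 0.051 (interval -0.21 to 0.32). Fdft1 was at 33.51 and 27.64 CPM in HET and at 31.98 and 31.9 CPM in KO Tregs, so that KO lay within HET. Fdps was lower in both KO libraries (4.988 and 5.526 CPM) than in both HET libraries (6.037 and 6.847 CPM), yet its log2 fold change of -0.29 came with an interval of -0.86 to 0.28. Idi1 was at 3.874 and 2.476 CPM in HET and at 2.512 and 2.967 CPM in KO Tregs, and its interval of -1.04 to 0.62 was the widest. Srebf2 and Fdps were the 2 of 7 genes whose groups did not overlap, where 43.6% of all genes tested showed no overlap between 2 and 2 libraries. For the 5 genes other than Idi1 and Fdps, the intervals did not reach beyond 1.28-fold up, the upper bound of Fdft1, or below 0.726 of the HET level, the lower bound of Insig1.

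Of 46 other genes of the pathway, 42 were tested in PP Tregs and 0 were called by edgeR's quasi-likelihood test. An unadjusted p below 0.05 was reached by 7 of the 42, where 14% of all genes reached it. Their log2 fold changes had a median of -0.065, against 0.0030 over all genes, and ran from -1.12 to 0.55. The count of 0 called was not firm. DESeq2's Wald test called 2 and the exact test 1, where these tests called 696 and 689 of all 12224 genes.

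In CD25- PP Tregs, iKO mice likewise showed no called difference in any of the 7 genes, in a comparison where edgeR's quasi-likelihood test called 0% of 17079 genes and 618 (3.62%) had an unadjusted p under 0.05. Of the 7 genes, 1 had an unadjusted p under 0.05, and DESeq2 and the exact test called 0. Junb itself fell by 2.44 on the log2 scale here with an adjusted p of 0.094 in edgeR's test, so that a count of 0 in this comparison also covers a gene with a large difference.

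Sqle was the gene with an unadjusted p under 0.05. It was at 46.17 and 42.55 CPM in iHET and at 55.06 and 58.68 CPM in iKO mice, both iKO libraries above both iHET libraries. The log2 fold change was 0.35 (interval 0.016 to 0.69, edgeR adjusted p = 0.999). The other enzymes differed less against their spread. Hmgcs1 was at 43.63 and 38.05 CPM in iHET and at 55.12 and 39.78 CPM in iKO mice, an overlap, with a log2 fold change of 0.21 (interval -0.27 to 0.69). Fdft1 was at 20.28 and 22.94 CPM in iHET and at 22.32 and 20.69 CPM in iKO mice, with iKO inside iHET. Idi1 was at 4.813 and 5.085 CPM in iHET and at 5.837 and 7.067 CPM in iKO mice, and Fdps at 5.741 and 5.501 CPM against 5.077 and 4.808 CPM. Neither overlapped, and they pointed in opposite directions, with log2 fold changes of 0.37 (interval -0.27 to 1.02) and -0.19 (interval -0.83 to 0.45). In all, 3 of the 7 genes did not overlap, where 32.1% of all genes did not.

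The 2 regulators did not separate by genotype. Srebf2 was at 385.4 and 372.6 CPM in iHET and at 410 and 338.4 CPM in iKO mice, so that iHET lay inside iKO. Insig1 was at 97.74 and 49.89 CPM in iHET and at 121.8 and 73.62 CPM in iKO mice. In both genotypes the male numbered 1 was far above the female numbered 2, and the interval of its log2 fold change of 0.40 ran from -0.47 to 1.27. Of the 46 other genes of the pathway, 43 were tested, 0 were called and 3 had an unadjusted p under 0.05, with a median log2 fold change of 0.0043 against -0.0023 over all genes.

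In colonic Tregs the comparison of iKO with iHET mice had 3 libraries a group and a term for the mouse number. The study fitted cage, and the number was assumed to stand for it, which the labels do not state. Again 0 of the 7 genes were called, and 0 had an unadjusted p under 0.05. Of 16313 genes tested, 1 (0.00613%), Junb itself, was called by edgeR's quasi-likelihood test. The unadjusted p was below 0.05 for 632 (3.87%). DESeq2 and the likelihood ratio test called 0 of the 7 genes too. In none of the 7 did the genotypes separate, where 8.35% of all genes did.

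Hmgcs1 came closest to a difference. It was at 63.62, 93.81 and 73.44 CPM in iHET and at 75.49, 103.7 and 89.14 CPM in iKO mice numbered 1 to 3, so that the iKO mouse of each of the 3 numbers was the higher. The log2 fold change was 0.22 (interval -0.028 to 0.47, edgeR adjusted p = 0.947). Sqle, the gene with an unadjusted p under 0.05 in CD25- PP Tregs, was at 70.77, 79.51 and 91.55 CPM in iHET and at 77.58, 83.95 and 77.58 CPM in iKO mice, all iKO libraries within the range of iHET. Its log2 fold change was -0.013 (interval -0.32 to 0.29).

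Fdft1 was at 19.18, 26.85 and 27.46 CPM in iHET and at 26.09, 22.4 and 30.51 CPM in iKO mice. Idi1 was at 5.329, 5.994 and 8.332 CPM in iHET and at 6.749, 7.554 and 5.904 CPM in iKO mice. In both genes the ranges overlapped widely, and the iKO mouse was the higher for 2 of the 3 numbers. Fdps was at 4.76, 4.406 and 2.591 CPM in iHET and at 4.25, 3.596 and 2.381 CPM in iKO mice. The iKO mouse was the lower for all 3 numbers, and the mice numbered 3 were far below the others, but the log2 fold change of -0.20 had an interval of -0.88 to 0.48.

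Srebf2 was at 558, 446.7 and 422.9 CPM in iHET and at 455.7, 461.6 and 413.8 CPM in iKO mice. The iHET mouse numbered 1 was the highest of the 10 libraries of the inducible line, and the log2 fold change was -0.096 (interval -0.38 to 0.19). Insig1 was at 100.1, 139.9 and 92.96 CPM in iHET and at 127.4, 144.7 and 81.68 CPM in iKO mice, highest in mouse 2 and lowest in mouse 3 in both genotypes, with a log2 fold change of 0.066 (interval -0.26 to 0.40). Of the 46 other genes of the pathway, 44 were tested, of which 0 were called and 0 had an unadjusted p under 0.05. Of the 44, 18 were higher and 26 lower in iKO mice, with a median log2 fold change of -0.045. The synthesis enzymes among them were higher in 10 of 14 cases, as were 8295 of all 16313 genes. Their median log2 fold change was 0.10, against 0.0048 over all genes. In PP and CD25- PP Tregs, 6 and 8 of the same 14 enzymes were higher in KO or iKO mice.

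**Figure D3:**
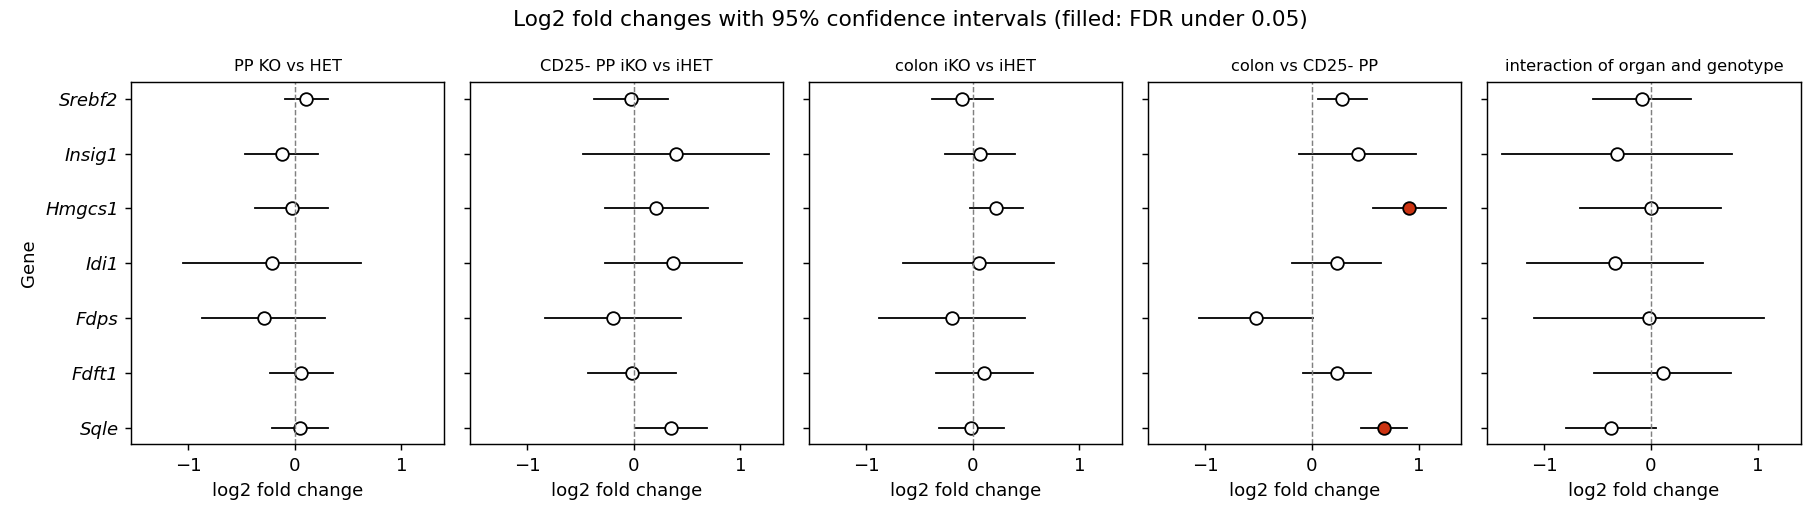
Log2 fold changes (points) of the 7 genes with 95% confidence intervals (lines) in the 3 comparisons of genotypes, the comparison of organs and the interaction of both, from edgeR's quasi-likelihood fits. Filled points passed an FDR of 0.05, which only Hmgcs1 and Sqle did, both between organs.

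Between organs, 2 of the 7 genes were called. In the 10 libraries of the inducible line, Hmgcs1 and Sqle were higher in colonic than in CD25- PP Tregs, by 1.88-fold and 1.60-fold, and no other of the 7 genes was called. The contrast took the mean of both genotypes in each organ. Of 18626 genes tested with edgeR's quasi-likelihood test, 3227 (17.3%) were called, 10% higher and 7.29% lower in colonic Tregs, and a set of 7 genes is too small to set a count of 2 apart from this background. The organ, the CD25- gate, used in PP only, and the digestion with dispase, used in colon only, cannot be told apart in this contrast, and whether the same mice gave both organs is not stated.

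Hmgcs1 ranged from 38.05 to 55.12 CPM in the 4 CD25- PP libraries (median 41.7) and from 63.62 to 103.7 CPM in the 6 colonic libraries (median 82.31). Every colonic library was above every CD25- PP library. Means were 44.15 ± 7.68 CPM (SD, n = 4) in CD25- PP and 83.2 ± 14.9 CPM (SD, n = 6) in colonic Tregs, with a log2 fold change of 0.91 (interval 0.57 to 1.25, edgeR adjusted p = 0.00383). Within iHET and within iKO mice alone, fits added after the data were seen, the log2 fold change was 0.91 in both, with edgeR adjusted p-values of 0.0354 and 0.0468. The sequence upstream of Hmgcs1 is printed here because this gene had the largest difference of the 7 and a RefSeq promoter entry. It covers 250 bases before the start of the transcript in RefSeq (chr13:119690101-119690350, plus strand, GRCm38.p6), with letters in capitals where they match TCACNCCAC, the core of a sterol regulatory element, or ATTGG, which is CCAAT, the core bound by NF-Y, read on the other strand.
Hmgcs1: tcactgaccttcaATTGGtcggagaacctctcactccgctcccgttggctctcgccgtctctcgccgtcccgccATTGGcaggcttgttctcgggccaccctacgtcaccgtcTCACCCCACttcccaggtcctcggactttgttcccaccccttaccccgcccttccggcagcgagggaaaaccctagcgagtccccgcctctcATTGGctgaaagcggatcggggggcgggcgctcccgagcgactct

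TCACNCCAC, searched on both strands, was found once in this window, starting at base -137 from the transcript start on the plus strand, and at least once in 1.24% of the 32851 mouse promoter windows of 300 bases (250 before to 50 after the start). CCAAT was found 4 times in the whole window on the minus strand, at -237, -176, -45 and 11, and at least once in 37.4% of all windows. The motifs did not overlap. In the corresponding windows of Srebf2, Insig1 and Idi1, TCACNCCAC had 0 matches, and CCAAT 1, 1 and 2. TGANTCA, the motif that AP-1 factors such as JunB recognize, had 0 matches in all 4 windows and at least 1 in 7.81% of all windows. These are matches of letters and not measured binding. Sequences that depart from the searched letters were not counted, so that 0 matches do not show that a window lacks such an element. Fdps, Fdft1 and Sqle had no entry.

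Sqle ranged from 42.55 to 58.68 CPM in CD25- PP (median 50.62) and from 70.77 to 91.55 CPM in colonic Tregs (median 78.55), again with no overlap. Means were 50.62 ± 7.52 CPM (SD, n = 4) and 80.16 ± 7.02 CPM (SD, n = 6), with a log2 fold change of 0.67 (interval 0.46 to 0.89, edgeR adjusted p = 0.00183). It was 0.86 within iHET mice (edgeR adjusted p = 0.00813) and 0.49 within iKO mice (adjusted p = 0.0765), so that within iKO mice the call was lost. The difference between these values is the interaction given further on, which was not called.

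The other 5 genes were not called. Srebf2 ranged from 338.4 to 410 CPM in CD25- PP and from 413.8 to 558 CPM in colonic Tregs (medians 379 and 451.2) and did not overlap, with a log2 fold change of 0.29 (interval 0.053 to 0.52, edgeR adjusted p = 0.0884). Fdps was the 1 gene of the 7 that was lower in colonic Tregs, at 2.381 to 4.76 CPM against 4.808 to 5.741 CPM, without overlap (log2 fold change -0.52, interval -1.06 to 0.011). Its pseudogene Gm3571, which shares 534 of its windows, went the other way in raw counts, with 63 to 90 in CD25- PP and 92 to 192 in colonic Tregs. Other pseudogenes of Fdps overlapped between CD25- PP and colonic Tregs, Gm5873 at 23 to 63 and 21 to 100 counts and Gm7979 at 12 to 36 and 9 to 38. So did Gm7959, at 2 to 18 and 1 to 16. These counts are not scaled to library depth, and the part of shared reads in the level of Fdps was not tested. Insig1 (log2 fold change 0.43, interval -0.12 to 0.98), Fdft1 (0.24, interval -0.085 to 0.56) and Idi1 (0.23, interval -0.18 to 0.65) overlapped between organs. In all, 4 of 7 genes did not overlap, against 16.4% of all genes, and 6 of 7 had a positive log2 fold change, with a median of 0.29 against 0.00072 over all genes.

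Of the other genes of the pathway, 12 of 45 tested were called between organs, where 17.3% of all genes were. Of the 14 enzymes other than the 7 genes, 4 were called higher in colonic Tregs and 0 lower, against 10% and 7.29% of all genes. These were Mvk and Mvd, mevalonate kinase and decarboxylase (log2 fold changes 0.73 and 0.97), Cyp51, lanosterol demethylase (0.84), and Hsd17b7, a sterol ketoreductase (1.41). Hsd17b7 was at 11.43 ± 2.95 CPM (SD, n = 4) in CD25- PP and at 29.82 ± 5.71 CPM (SD, n = 6) in colonic Tregs. The median of the 14 was 0.32. Among regulators, Insig2, the relative of Insig1, and Mbtps1, the protease that makes the first cut in SREBPs, were called lower in colonic Tregs (log2 fold changes -0.59 and -0.32), and the other 4 of 6 were not called.

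Stard4, a carrier of cholesterol in the cytosol, and Lrp8, a receptor of the LDL receptor family, were called higher (0.79 and 1.28) of 7 genes of uptake and transport. Abca1, the exporter of cholesterol, was called lower (-1.04) of 5 genes of efflux. Scd1 and Elovl6, which desaturate and elongate fatty acids, were called higher (1.58 and 0.71) of 6 genes of fatty acid synthesis, and Fntb, a subunit of protein farnesyltransferase, was called lower (-0.69) of 3 genes of prenylation. Of the 5 genes of esterification and oxysterols, 4 were tested and 0 were called. In all, 8 of 45 tested genes of the list were called higher and 4 lower. The total of 12 depended on single libraries, falling to 6 and 5 without the colonic library of iHET mouse 2 or iKO mouse 2, to 5 without CD25- PP iHET mouse 2, and to 7 and 6 without CD25- PP iKO mouse 1 or 2. Over all genes, calls fell as well in these 5 fits, from 3227 to between 1581 and 2480. Within iHET and within iKO mice alone, 2 and 3 genes of the list were called, and 1201 and 758 of all genes.

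**Figure D4:**
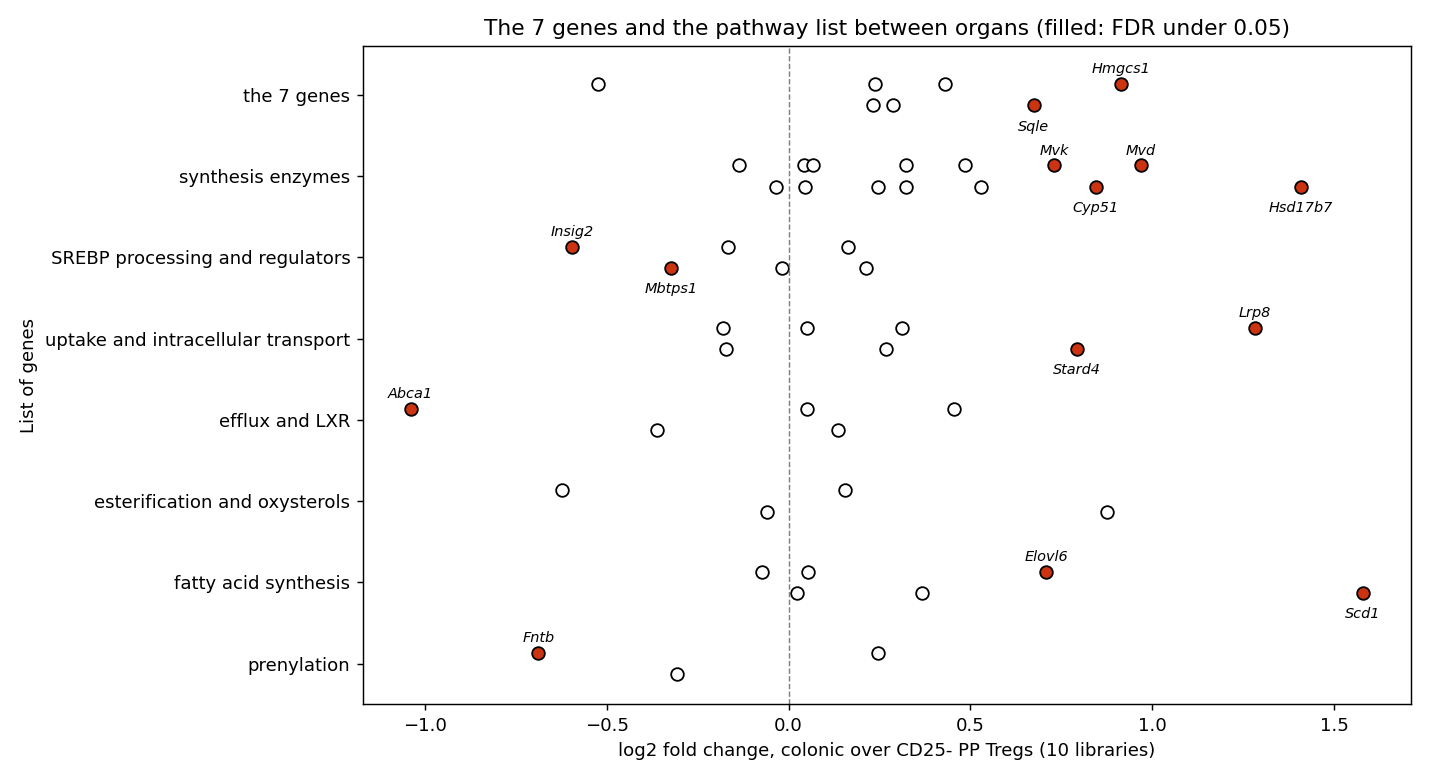
Log2 fold changes of colonic over CD25- PP Tregs for the 7 genes and for each class of the other pathway genes that were tested. Each point is a gene, filled and named where it passed an FDR of 0.05. The synthesis enzymes called are all on the right, with Hsd17b7 at 1.41, while Insig2, Mbtps1, Abca1 and Fntb are on the left.

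Other properties of the libraries moved with the organ. Of the 6 Treg markers, 3 were called higher and 2 lower in colonic Tregs, with log2 fold changes from -0.67 to 0.89. Foxp3 ranged from 59.71 to 85.71 CPM in CD25- PP and from 79.77 to 155.3 CPM in colonic Tregs. All 10 genes of a proliferation list had positive log2 fold changes, 4 of them called, with a median of 1.16. Their sum was 251.8 to 271.8 CPM in CD25- PP and 328.8 to 817.7 CPM in colonic Tregs, without overlap. All 6 myeloid markers had positive log2 fold changes, 3 of them called, and summed to 13.72 to 55.84 and 43.04 to 213.1 CPM. Epithelial markers were called higher in 5 of 12 cases and lower in 0, and 3 had negative log2 fold changes, down to -3.48. Over all genes, 10% were called higher and 7.29% lower. Markers of B cells summed to 68.86 to 91.87 and 45.65 to 99.82 CPM, and those of cytotoxic lymphocytes to 19.53 to 46.39 and 9.111 to 16.43 CPM. All 6 B cell markers had negative log2 fold changes, 1 of them called. Of the 4 cytotoxic markers tested, 1 was called higher and 2 lower. Of the defining markers, Alpi and Muc2 (epithelium), Itgam (myeloid) and Ncr1, Klrb1c, Klrd1 and Tyrobp (cytotoxic lymphocytes) were at 0 in 1 library or more of all 14, and every B cell marker was above 0 in all. The part of proliferation, gate and other cells in the levels of Hmgcs1 and Sqle was not tested.

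The difference between genotypes did not differ detectably between organs for any of the 7 genes. The interaction of organ and genotype was called for 0 of the 7 and for 0 (0%) of 18626 genes by edgeR's quasi-likelihood test. The unadjusted p was below 0.05 for 622 genes (3.34%), none of the 7 among them. DESeq2 and the likelihood ratio test called 0 of the 7 as well. The closest was Sqle, whose interaction of -0.37 on the log2 scale (interval -0.80 to 0.048, unadjusted p = 0.0766 and adjusted p = 1.00 in edgeR's test) stands beside log2 fold changes of 0.35 in CD25- PP and -0.013 in colonic Tregs in their own fits. That of Hmgcs1 was -0.00016 (interval -0.66 to 0.66). With 2 and 3 libraries a group the interval is wide, and allows a ratio of the genotype changes from 0.632 to 1.58. All 12 epithelial markers had a positive interaction, 0 of them called, where 9310 of all 18626 genes had one. The part of epithelial RNA in these values was not tested.

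Apart from organ and genotype, the 7 genes varied between mice of a group, and did not move as a block. After the mean of each of the 6 groups was taken from the log2 CPM, Insig1 spread most, from -0.48 to 0.48, and Sqle stayed between -0.18 and 0.19. Insig1 and Hmgcs1 deviated with the same sign in all 4 libraries of PP Tregs, all 4 of CD25- PP Tregs and 4 of 6 of colonic Tregs, and Pearson's r of their deviations was 0.671 over 14 libraries. Idi1 and Sqle had the highest r of any pair, 0.794, and Fdps and Fdft1 the lowest, -0.64. Against the mean of the other 6 genes, r was 0.633 for Insig1, 0.512 for Hmgcs1, 0.284 for Sqle, 0.161 for Srebf2, 0.0984 for Fdps, -0.141 for Idi1 and -0.321 for Fdft1. These values describe 14 libraries, and in groups of 2 the deviations mirror each other, so that they carry no test.

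**Figure D5:**
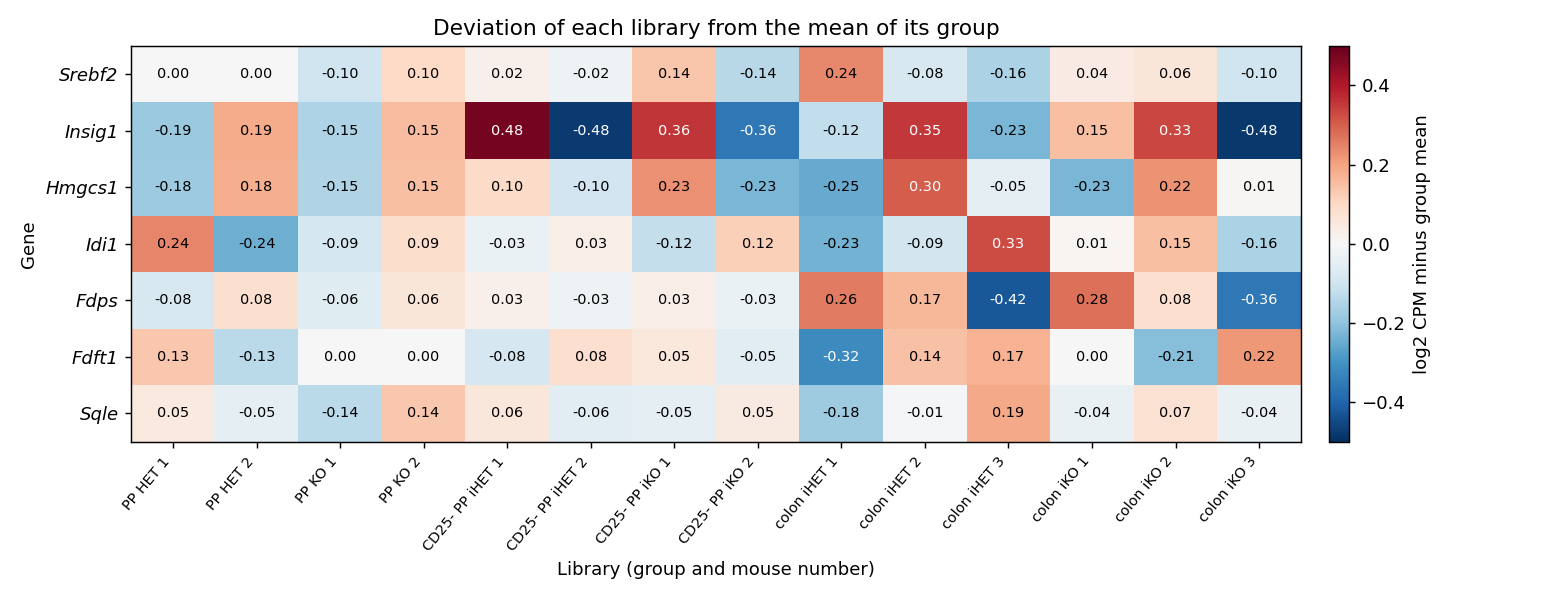
Difference of each library (columns) from the mean of its group in log2 CPM for each of the 7 genes (rows), red above and blue below the mean. Insig1 has the widest range, -0.48 to 0.48, and follows the mouse number in both genotypes of CD25- PP Tregs, while Sqle stays within -0.18 and 0.19.

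In colonic Tregs, same-numbered iHET and iKO mice deviated alike in some of the genes and not in others. Insig1 deviated by 0.355 and 0.333 in log2 units in mouse 2 in iHET and iKO mice, and by -0.23 and -0.484 in mouse 3. Fdps was above the mean in mice 1 and 2 and below it in mouse 3 in both genotypes, at -0.424 and -0.359. Hmgcs1 was below the mean in mouse 1 and above it in mouse 2 in both. Other genes went opposite ways. Idi1 was at 0.325 in iHET and -0.159 in iKO mouse 3, Sqle at 0.189 and -0.0375 in the same mice, and Fdft1 at 0.145 and -0.214 in mouse 2. In the mean over the 7 genes, mouse 2 was the highest in iHET (0.112) and in iKO mice (0.101), whereas mice 1 and 3 changed places between genotypes. Mice numbered 1 were male and those numbered 2 and 3 were female.

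The genes whose deviations were most like the mean of the 7, among 8834 genes tested in all 3 comparisons of genotypes with a mean of at least 10 CPM, were Tfrc, the transferrin receptor that takes up iron (r = 0.959), Uba6, an activating enzyme of ubiquitin (0.935), Ptbp1, a splicing regulator (0.924), Sdc4, a syndecan (0.914), and Josd1, a deubiquitinase (0.908), each over 14 libraries. Of the pathway list, Fasn, fatty acid synthase, was the most like, with an r of 0.892 and rank 11, and Insig2 the least like, with -0.658 and rank 8365, both named after their values were seen.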

How the data were processed

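RNA was measured by bulk RNA-seq in 14 libraries of sorted Tregs, with each library of a group from a separate mouse. Whether the same mice of the inducible line gave colon and PP is not stated, and the organ contrast and the interaction treat their libraries as separate. The authors deposited raw read counts per gene. They trimmed reads with Trim Galore, aligned them with STAR to GRCm38, kept uniquely mapped reads only, and assigned them to the genes of GENCODE with featureCounts, left at defaults and so without regard to strand. Paired-end reads of the inducible line were used as single-end. No normalization had been applied.

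The genes and lists were chosen with earlier results of these data known. Gene symbols, positions and exon lengths came from GENCODE M21, whereas the study names another release. Of 53801 IDs of the Foxp3-YFP-cre libraries, 53620 matched, and of 55487 IDs of the inducible line, 55394 did. Promoters came from RefSeq on GRCm38.p6, with entries for 4 of the 7 genes.

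Counts were tested in R 4.3.3 with edgeR 4.0.16 (TMM, genes with at least 1 CPM in as many libraries as the smallest group, prior count 1, quasi-likelihood test, Benjamini-Hochberg over all genes tested). PP and CD25- PP Tregs were fitted on their own libraries. Colonic Tregs were fitted with the mouse number as a block. The study used a term for cage, and the number was taken as the cage, which the labels do not state. Deviations of same-numbered colonic libraries had r of 0.29, 0.415 and 0.115 over 9476 genes. The organ contrast and the interaction came from a fit of 4 groups over 10 libraries. Intervals are at 95%. Floors of 3 counts cover counting error only, as reads carry no molecular identifiers. Named genes are the 7 genes, Junb, genes of the pathway list that passed the FDR, the ends of a list's range, and the 5 genes most like the 7 (r of log2 CPM with a prior count of 1, centred on the 6 group means). Alternatives were DESeq2 1.42.0, its size factors, upper-quartile normalization, 2 other filters, a prior count of 0.125, edgeR's exact or likelihood ratio test, fits with or without the replicate number, a fit of all 10 libraries, and leaving out each library. Python 3.11.15 and matplotlib 3.10.9 were used for figures. The tests were checked on simulated data. Results for a few genes of the pathway are not reported here.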

Additional observations from a re-analysis of the deposited data

How the results depend on the processing

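Under all alternatives run, 0 of the 7 genes were called in the 3 comparisons of genotypes and in the interaction. Between organs, Hmgcs1 was called in all 11 alternatives and without each of the 10 libraries in turn (log2 fold change 0.803 to 1.04, edgeR adjusted p 0.00332 to 0.0247 without a library). Sqle was called in 10 of 11 alternatives and without each library (0.62 to 0.708), and 1 gene, not 2, was called within iKO mice, a fit added after seeing the data, where Sqle had an adjusted p of 0.0765 (8.97e-09 to 0.0765 over the alternatives). In 3 alternatives another gene was called, Srebf2 with DESeq2's Wald test (adjusted p = 0.0499) and with the replicate block (0.048; 0.048 to 0.377 over its alternatives) and Insig1 without a filter on low counts (0.00747; 0.00747 to 0.698). With mice 1 and 2 only in both organs, also added later, Hmgcs1 and Sqle were called.

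Small differences that were not called changed sign in places, 43 times when a library was left out. Below are the lowest and highest log2 fold changes without a library. In PP Tregs these were -0.000417 to 0.202 for Srebf2, -0.303 to 0.0756 for Insig1, -0.204 to 0.162 for Hmgcs1, -0.498 to 0.139 for Idi1, -0.073 to 0.204 for Fdft1 and -0.1 to 0.182 for Sqle. In CD25- PP Tregs they were -0.174 to 0.107 for Srebf2, -0.0134 to 0.958 for Insig1, -0.0482 to 0.425 for Hmgcs1 and -0.105 to 0.0735 for Fdft1. In colonic Tregs they were -0.175 to 0.00365 for Srebf2, -0.0735 to 0.198 for Insig1, -0.0921 to 0.336 for Idi1, -0.0592 to 0.305 for Fdft1 and -0.0849 to 0.106 for Sqle. For the interaction they were -0.212 to 0.0634 for Srebf2, -0.88 to 0.0918 for Insig1, -0.214 to 0.256 for Hmgcs1, -0.252 to 0.188 for Fdps and -0.0428 to 0.201 for Fdft1. The interactions of Hmgcs1 and Fdps were 0.0203 and 0.00542 with upper-quartile normalization, and that of Hmgcs1 was 0.0116 with at least 10 counts in every library.

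Counts over all genes moved more than those of the 7 genes. In PP Tregs 409 genes were called, against 1305 without a filter, 696 with DESeq2, 689 with the exact test, 1015 with the replicate block and 36 to 390 without a library. In CD25- PP Tregs the count of 0 became 232, 35 and 43 with no filter, DESeq2 and the exact test, 0 with the replicate block, and 2 to 77 without a library, the highest without iHET mouse 1. In colonic Tregs 1 became 24, 50 and 25 with no filter, DESeq2 and the likelihood ratio test, 1 without the replicate block, and 0 to 8 without a library, the highest without iHET mouse 3. In PP and CD25- PP Tregs both numbers give the same r by construction (0.235 and 0.183 over genes), which with 2 pairs was not taken to show a pairing, and between organs r ran from -0.0861 to 0.27. The block in colonic Tregs was set by the study's design. Between organs the pathway list had 12 calls, 8 with the replicate block, 5 to 13 without a library, and 2 and 3 within iHET and iKO mice. In PP Tregs it had 0, against 5 without a filter and 4 with the replicate block. With 2 or 3 mice a group and 68 to 254 counts of Idi1 or 75 to 188 of Fdps a library, differences in these 2 genes below the width of their intervals were not detectable.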

Other observations

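Some of the genes that share sequence with the 7 genes were listed at very different counts in the 2 tables, although the libraries were of similar depth. Gm3571, a copy of Fdps, had 6 to 9 counts in the 4 libraries of Foxp3-YFP-cre mice and 63 to 192 in the 10 libraries of the inducible line. Gm5873, another copy of Fdps, had 0 to 3 and 21 to 100 counts. Gm13502, a copy of Idi1, had 0 to 1 and 15 to 87 counts, Gm6781, a copy of part of Fdft1, had 0 to 2 and 93 to 215, and Gm37784, a copy of part of Insig1, had 0 to 1 and 43 to 129. For these 5 pseudogenes every library of the inducible line, those of males included, was above every library of the male Foxp3-YFP-cre mice. Gm7979 (1 to 2 and 9 to 38 counts) and Gm7959 (0 and 1 to 18), which share sequence with Fdps, did not overlap either. The tables differ in mouse line, tamoxifen, sorted population, sequencer, read layout and the set of annotated gene IDs, and these cannot be told apart. Of the 53801 IDs of the Foxp3-YFP-cre libraries, 51464 had the same version as in GENCODE M21. Of the 55487 IDs of the inducible line, 55094 did. Other such genes overlapped at low counts, Gm8163 at 0 to 3 and 0 to 6, Gm48342 at 0 to 5 and 0 to 20, Gm48574 at 1 to 6 and 0 to 10, Gm8911 at 0 to 2 and 0 to 5, Gm35570 at 0 and 0 to 2, and Gm7654 at 0 to 1 and 0. Gm43738, the gene model that runs through Fdps, had 0 to 1 counts in every library of both tables.

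Other genes of the pathway lay at the ends of the list's range in single comparisons of genotypes, without passing the FDR of edgeR's quasi-likelihood test. In PP Tregs the lowest and highest log2 fold changes of KO over HET were those of Abca1, the exporter of cholesterol (-1.12, adjusted p = 0.112), and Abcg1, a related exporter (0.55, adjusted p = 0.154), so that 2 transporters of the same process pointed in opposite directions. In CD25- PP Tregs the lowest was Nr1h3, which encodes the sterol-sensing receptor LXR alpha (-1.57, adjusted p = 0.999). Its level was low, 2.235 and 3.736 CPM in iHET and 0.9471 and 1.034 CPM in iKO mice, near the filter of 1 CPM. Its counts were 65 to 108 and 26 to 34. As the end of a list in groups of 2 mice, this value is not a finding about Nr1h3.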
